A study of Mus musculus with 48 samples.

Results

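The 94 genes described here encode subunits, assembly factors and isoforms of the oxidative phosphorylation complexes of mitochondria. They were chosen by symbol, as those that begin with Nduf, Sdha, Sdhb, Sdhc, Sdhd, Uqcr, Atp5 or Cox followed by a digit from 4 to 8, among 18193 genes that have an array probe carrying their symbol and no other. Of the 94, 73 are widely used subunits of complexes I to V, 12 are assembly factors, 8 are tissue-restricted isoforms and 1 is Cox7a2l, a factor that joins complexes into supercomplexes. Where a gene had several probes, the one brightest on average across the 48 arrays stood for it. In all, 91 members exceeded 100 on the linear scale in at least 1 array and were tested among 14404 genes, while Ndufb4, Cox7b2 and Cox8b did not pass. Ndufb4 also lies on probes shared with Ndufb4b and Ndufb4c, which were not used, so failing the filter does not show that the gene was silent. Ndufa11 and Ndufs6 lie only on probes shared with another gene and were not analysed here, and no probe named a subunit encoded by mitochondrial DNA.

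The arrays cover 13 sorted populations of mouse pancreas on a CD-1 background, 12 of them wild type apart from the fluorescent reporters. Cells positive for Sox9-eGFP, a BAC transgene, were taken from dorsal pancreas at E11.5 (n = 4), and because eGFP outlasts its promoter they include some progeny that had lost Sox9. At E15.5, progenitors, acinar cells and endocrine progenitors (n = 3 each) were sorted from Neurog3-eGFP transgenic pancreata with antibodies to CD133, CD49f and CD24, a design that separated endocrine progenitors from hormone-positive descendants that still carry eGFP. Neurog3-null cells (n = 4) were eGFP-positive cells of embryos with eGFP knocked into both copies of Neurog3, the gene that starts the endocrine programme. Their stage label reads E15.5 although their titles read E1.5. Beta cells were sorted by MIP-GFP, green fluorescent protein under an insulin promoter, at E15.5 (n = 4), E17.5 (n = 3), P0 (n = 3), P15 (n = 4) and 8 to 12 weeks (n = 4). Alpha cells were sorted by Glucagon-Venus at P0 (n = 4) and 8 to 12 weeks (n = 5), and adult duct cells of 8 to 12 weeks by the surface marker CD133 (n = 4). Male mice gave the P15 and adult beta cells and the alpha cells of 8 to 12 weeks. Antibodies to CD45 and Ter119 were used to exclude blood cells, and most fetal samples were pools of many pancreata. The arrays of a population are separate samples. Each p-value of the main fit rests on the spread between samples within populations, pooled over all 13 populations and not only those compared.

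Complex I, the NADH dehydrogenase, and complex II, the succinate dehydrogenase shared with the tricarboxylic acid cycle, pass electrons to complex III, which hands them through cytochrome c to complex IV, where oxygen is reduced. Complexes I, III and IV pump protons, and complex V, the ATP synthase, uses that gradient to make ATP. In beta cells the ATP made from glucose closes a potassium channel and triggers insulin release, which is why these genes are of interest for islet maturation. Several complex IV subunits exist as alternative isoforms, such as Cox6a2 and Cox7a1 of heart and skeletal muscle and Cox6b2 of testis, beside widely used partners such as Cox6a1, Cox7a2 and Cox6b1.

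Promoters are shown because genes of this pathway are encoded on many chromosomes and share a few binding motifs, of which NRF1 and the ETS family are the best known. RefSeq windows of GRCm38.p6, from 250 bases before to 50 bases after the start, were found for 78 of the 94 members. The NRF1 motif, spelled GCGC, any base, then TGCGC, and searched like the others on both strands, occurred in 18 of the 78 windows (23.1%) and in 4.78% of 27025 windows of all genes. ETS letters, CCGGAAG, occurred in 21 (26.9%) against 9.12%, YY1 letters, AAGATGGC, in 9 of the 78 against 2.88%, and TATA box letters, TATAAA, also in 9 against 14.2%. A match is a description of these letters and not a bound site. The 150 bases before the start are printed for 5 members, with motif letters in capitals and the motif matches in either orientation. The results below name Sdha, Ndufa8, Atp5k and Ndufa4, but not Sdhd. Sdha lies on the minus strand of chr13:74350241-74350390 and holds 3 NRF1 matches. Ndufa8 is at chr2:36049339-36049488, Atp5k at chr5:108434400-108434549 and Sdhd at chr9:50603850-50603999, all minus strand, and Sdhd holds an ETS match beside its NRF1 match. Ndufa4, the subunit with the widest range between populations, is at chr6:11907451-11907600 on the minus strand and held none of the 4 motifs in its full window.
Sdha: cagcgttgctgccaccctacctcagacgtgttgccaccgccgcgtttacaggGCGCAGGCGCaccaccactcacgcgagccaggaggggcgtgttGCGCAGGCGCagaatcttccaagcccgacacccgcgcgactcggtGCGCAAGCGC
Ndufa8: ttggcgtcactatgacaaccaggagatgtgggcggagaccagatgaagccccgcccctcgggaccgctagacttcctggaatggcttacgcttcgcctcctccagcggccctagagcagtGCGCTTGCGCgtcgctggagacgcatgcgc
Atp5k: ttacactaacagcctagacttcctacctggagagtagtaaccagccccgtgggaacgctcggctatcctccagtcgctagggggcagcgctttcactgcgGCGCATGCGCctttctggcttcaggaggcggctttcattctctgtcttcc
Sdhd: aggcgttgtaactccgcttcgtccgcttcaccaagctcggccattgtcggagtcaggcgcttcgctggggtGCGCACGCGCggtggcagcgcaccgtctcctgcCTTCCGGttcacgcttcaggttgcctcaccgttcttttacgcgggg
Ndufa4: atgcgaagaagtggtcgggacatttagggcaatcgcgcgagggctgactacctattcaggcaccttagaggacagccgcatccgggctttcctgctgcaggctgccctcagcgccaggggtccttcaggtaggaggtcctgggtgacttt

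Checks of the series bear on how far the members can be read. The deposited log2 values of 45101 probes had array medians from 6.58 to 6.88, and no pair of arrays correlated above r = 0.997. Neurog3 measured 10.97, 10.29, 10.70 and 10.32 in the Neurog3-null arrays against 13.34, 13.41 and 13.44 in endocrine progenitors, but the probe may lie outside the replaced part and so does not check the genotype by itself. Ins2 was high in all beta populations (means 14.29 to 14.65) and also in P0 and adult alpha cells (14.46 and 13.91), and Gcg was high in alpha cells (14.28 and 14.48) and also in beta cells (13.75 to 14.09). Transcripts this abundant can saturate array probes, and with 15.10 as the highest deposited value these levels do not measure the purity of the sorts. Markers of other cells differed widely. The mean of a leukocyte list was 11.28 in Neurog3-null cells, 11.18 in both adult beta and adult duct cells and 5.66 in adult alpha cells, and a mesenchyme and stellate list averaged 12.05 and 12.64 in E17.5 and P0 beta cells against 6.17 at P15. Fewer cells of a type and less RNA per cell cannot be told apart in such bulk samples.

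On the deposited scale the subunits were highest in acinar cells of E15.5 and lowest in adult duct cells. The order depends on that scale: the subunits' median less that of the cytosolic ribosome genes was highest in E15.5 beta cells (-1.20, acinar cells -1.26) and lowest in duct cells (-1.83), and less that of the proteasome genes it was highest in adult alpha cells (0.59) and lowest in E11.5 progenitors (0.12), with 0.30 in acinar and 0.27 in duct cells. The mean of the 73 subunits per array, which includes the untested Ndufb4, is a relative log2 level. It was 12.49 ± 0.06 (SD, n = 3) in acinar cells, 12.37 ± 0.05 (SD, n = 4) in E11.5 progenitors, 12.31 ± 0.01 (SD, n = 3) in E15.5 progenitors, 12.29 ± 0.10 (SD, n = 4) in Neurog3-null cells and 12.18 ± 0.13 (SD, n = 3) in endocrine progenitors. Beta cells held 12.37 ± 0.06 (SD, n = 4) at E15.5, 12.27 ± 0.06 (SD, n = 3) at E17.5, 12.27 ± 0.02 (SD, n = 3) at P0, 12.06 ± 0.18 (SD, n = 4) at P15 and 11.95 ± 0.03 (SD, n = 4) in adults. Alpha cells held 11.68 ± 0.09 (SD, n = 4) at P0 and 11.84 ± 0.12 (SD, n = 5) as adults, and duct cells held 11.53 ± 0.11 (SD, n = 4). Ordered by these means, the arrays of every population overlapped those of its neighbour. Duct arrays, at 11.37 to 11.62, overlapped only those of P0 alpha cells (11.60 to 11.79), and adult beta arrays (11.92 to 11.99) lay below all E15.5, E17.5 and P0 beta arrays.

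**Figure D1:**
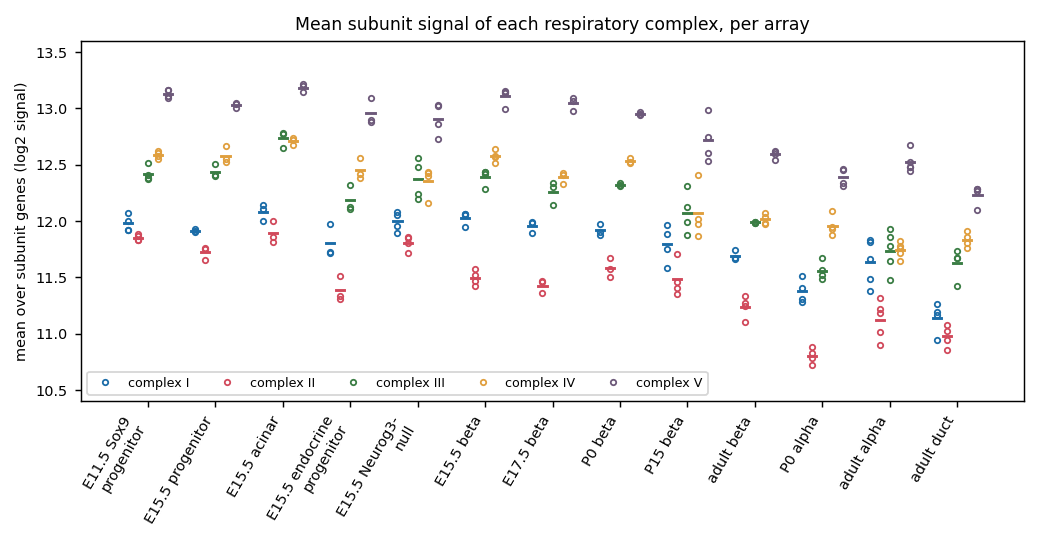
Mean log2 signal of the subunits of complexes I to V in each of the 48 arrays (points, horizontal axis by population) with the population mean (bars), complexes set apart by colour. In every complex the duct, P0 alpha and adult alpha arrays sit low. Complex IV is lowest in adult alpha cells (11.75) and complexes I and V in duct cells (11.14 and 12.23).

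The complexes did not follow one order. Complex II was lowest in P0 alpha cells, at 10.80 ± 0.07 (SD, n = 4), where duct cells held 10.98 ± 0.09 (SD, n = 4), and complex III was likewise lowest in P0 alpha cells, at 11.56 ± 0.08 (SD, n = 4). Complex IV was lowest in adult alpha cells, at 11.75 ± 0.07 (SD, n = 5), below P0 alpha cells at 11.96 ± 0.09 (SD, n = 4). Assembly factors, which help build the complexes and are not part of them, ran from 10.06 ± 0.02 (SD, n = 4) in E11.5 progenitors through 9.56 ± 0.23 (SD, n = 3) in endocrine progenitors to 8.82 ± 0.18 (SD, n = 4) in duct cells. These means are descriptions and were not tested as scores.

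Most subunits shared the pattern and a few did not. Over the 13 population means, which share arrays and normalization, 40 of 72 subunits correlated with the median of the others at r above 0.8 and 64 above 0.5, with a median r of 0.83. Cox7c (0.00), Ndufa1 (0.12), Ndufa9 (0.13) and Ndufb11 (0.14) followed it least. Ndufb11, an accessory subunit of complex I, held between 13.47 and 14.04 in every array outside duct cells. The supercomplex factor Cox7a2l ran opposite to the subunits (r = -0.43). The widest ranges of population means belonged to Cox6a2, Ndufa4, Cox7a1, Cox6b2 and Ndufa4l2, all of complex IV. The narrowest belonged to Atp5a1, the alpha subunit of complex V.

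**Figure D2:**
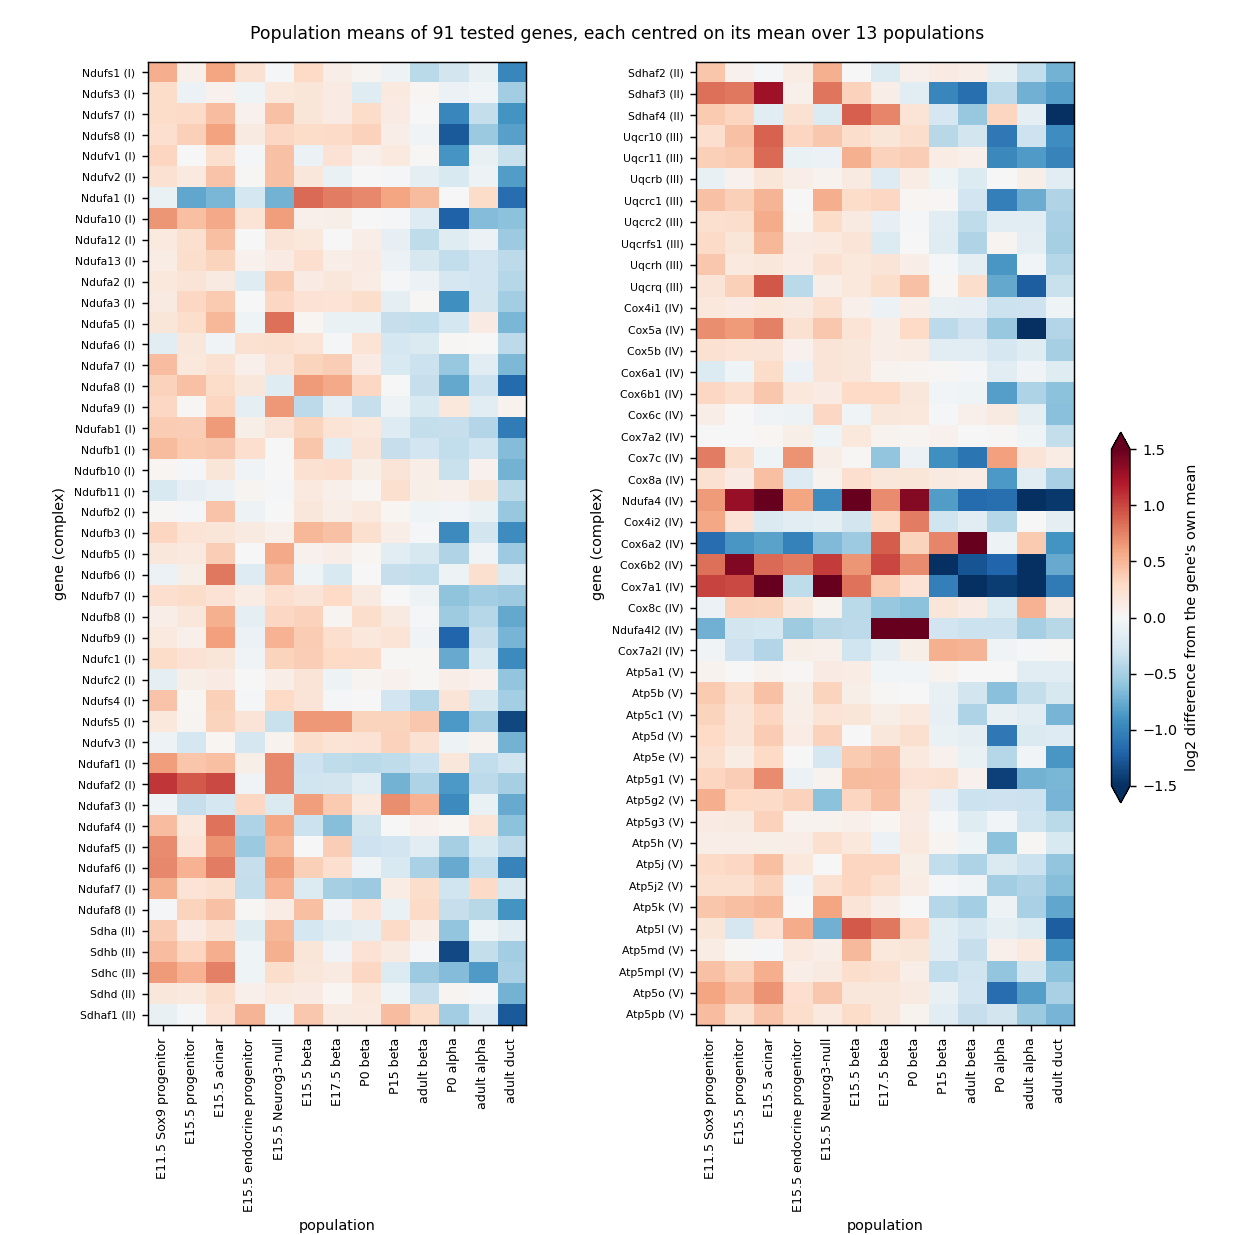
Mean log2 signal of the 91 tested members (vertical axis, grouped by complex) in the 13 populations (horizontal axis), each gene centred on its own mean and coloured between -1.5 and 1.5. Most members are pale to warm in the fetal columns and cool in the P0 alpha and duct columns, with the isoforms of complex IV as the strongest single cells of the map.

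Beta cells were compared before birth or at birth (E15.5, E17.5 and P0) and after it (P15 and 8 to 12 weeks), the interval over which insulin release becomes tied to glucose. On the deposited scale, 57 of the 91 members were lower after birth and 7 higher at an adjusted p under 0.05 (limma, Benjamini-Hochberg over all probes tested), where 37.2% of all genes tested were lower and 29.7% higher, and centring each array on its cytosolic ribosome genes gave 20 lower and 24 higher, on its proteasome genes 22 lower and 24 higher. The members' median difference was -0.26 on the log2 scale against -0.05 for all genes, and -0.01 under either centring, which moved the median of all genes by 0.26 and 0.25. The falls were small: 6 members fell and 1 rose by at least 2-fold, against 14.8% and 6.37% of all genes. By complex, 19 of 33 tested subunits of complex I fell, 2 of 4 of complex II, 7 of 8 of complex III, 6 of 10 of complex IV and 15 of 17 of complex V, with medians of -0.25, -0.19, -0.29, -0.22 and -0.36, and Sdha alone among these 72 rose. Of the 12 assembly factors, 4 fell and 3 rose.

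Ndufa4, a small subunit of complex IV once assigned to complex I, had the largest fall among the widely used subunits. It measured 12.01, 11.76, 12.11 and 11.89 at E15.5, 10.78, 11.15 and 11.40 at E17.5, and 11.45, 11.99 and 11.91 at P0. After birth it measured 11.30, 9.20, 8.79 and 8.98 at P15 and 9.05, 9.69, 9.24 and 9.02 in adults. All postnatal arrays but the first of P15 lay below every fetal array. The fitted difference was -2.20 (SE 0.24, adjusted p = 3.67e-10).

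Cox5a, which forms part of complex IV on its matrix side, measured 12.77, 12.78 and 12.73 in P0 beta cells. It measured 12.50, 11.84, 11.94 and 11.95 at P15 and 12.11, 12.09, 12.18 and 12.17 in adults, with a difference from fetal to postnatal cells of -0.56 (SE 0.09, adjusted p = 9.28e-07). The same P15 array was again the highest of its group. In complex V, Atp5l, the g subunit of the membrane part, fell by 0.88 (SE 0.11, adjusted p = 3.31e-09) and Atp5mpl, a small membrane subunit, fell by 0.53 (SE 0.07, adjusted p = 7.18e-08), the latter with no overlap between fetal and postnatal arrays.

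Complex II was split. Sdhc, a membrane anchor subunit, fell by 0.58 (SE 0.10, adjusted p = 6.99e-06), and Sdhaf4, which helps to assemble the complex, fell by 1.02 (SE 0.12, adjusted p = 3.81e-09). Sdha, the flavoprotein that oxidizes succinate, measured 12.10, 11.89 and 11.70 at P0 and 12.30, 12.24, 12.35 and 12.43 at P15 and rose by 0.39 from fetal to postnatal cells (SE 0.07, adjusted p = 7.73e-06). Of the complex I assembly factors, Ndufaf7 rose by 0.61 (SE 0.10, adjusted p = 7.63e-07) and Ndufaf4 by 0.44 (SE 0.08, adjusted p = 7.76e-06). Sdha, Sdhc, Ndufaf4 and Ndufaf7 were picked out here after their values were seen.

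Cox7a2l rose with no overlap. It lay between 11.98 and 12.55 in all 10 fetal arrays, and measured 12.77, 12.87, 13.13 and 13.05 at P15 and 13.03, 12.96, 12.91 and 12.87 in adults. The difference was 0.64 (SE 0.07, adjusted p = 7.43e-11). Called in the same direction under all 5 scalings tried, the deposited values and 4 others, were 7 higher members (Cox6a2, Cox7a2l, Cox8c, Ndufaf3, Ndufaf4, Ndufaf7 and Sdha) and 20 lower ones, among them Atp5l, Atp5mpl, Cox5a, Cox6b2, Cox7a1, Ndufa4, Sdhaf4, Sdhc and Uqcr10. Among the higher members, Cox8c had weak signal, with beta cell means of 5.30 at P0, 6.11 at P15 and 6.05 in adults. These means lay below the signal floor of the filter, so its call describes a difference within weak signal. For Atp5g2, Ndufa12 and Ndufs8 another tested probe was called in the opposite direction.

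Markers of other cells fell over the same interval. All 14 tested mesenchyme and stellate markers, 13 of 13 endothelial markers and 19 of 19 cell cycle genes were lower in postnatal beta cells, and 8 of 18 leukocyte markers were higher. The mesenchyme and stellate list averaged 9.46 to 12.71 in single fetal arrays and 5.63 to 8.32 in postnatal ones. E15.5 and P15 beta cells, in which the leukocyte list averaged 7.25 and 7.46, were also compared alone, on the deposited scale only. There 39 members were lower and 6 higher, against 28.2% and 17.9% of all genes, with a median of -0.26 against -0.07. The subunits' median less that of the proteasome genes was 0.50 at E15.5 and 0.41 at P15. Less that of the cytosolic ribosome genes it was -1.20 and -1.36. The part of these other cells in the difference was not tested further.

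By step, calls among the members were fewest from E17.5 to P0 and most numerous from P0 to P15, as they were among all genes. From E15.5 to E17.5, 7 members were lower and 3 higher, against 10.5% and 14.4% of all genes, with 2 lower and 4 higher after centring on proteasome genes and 5 calls without the first E17.5 array. Between E17.5 and P0, 1 was lower and none higher, against 5.94% and 8.54%, with 1 in each direction on the proteasome centring and 0 to 2 calls when single arrays were left out. The call was Ndufaf5, a complex I assembly factor, at -0.68 (SE 0.21, adjusted p = 0.0294). From P0 to P15, 29 were lower and 8 higher, against 29.0% and 23.4%, with 8 lower and 16 higher after centring on cytosolic ribosome genes, 14 and 13 on proteasome genes and 14 and 11 on array medians. This step rests on single arrays: without the first P15 array, whose subunit mean was 12.29 against 11.86, 11.99 and 12.11, 45 members were called, and without the second, 21. The arrays of these populations alone gave 13 calls, and array weights gave 58, where they called 65.4% of all genes. That first array also carried the highest leukocyte, mesenchyme and acinar list means of its group (8.95, 7.47 and 12.75). From P15 to adults, 3 were lower and 1 higher, against 7.11% and 12.3%, but none lower and 3 or 4 higher after centring on cytosolic ribosome or proteasome genes, and 1 call remained in number without the fourth adult array.

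In alpha cells the direction of most calls on the deposited scale was the opposite. From P0 to 8 to 12 weeks, 36 members were higher and 14 lower, where 26.9% of all genes were higher and 30.9% lower, with 41 and 6 after centring arrays on their median and 34 and 13 on proteasome genes, but 14 higher and 38 lower after centring on cytosolic ribosome genes. The arrays of these populations alone gave 24 calls. The members' median difference was 0.10 against -0.03 for all genes, and -0.20 with the ribosome centring, which moved the median of all genes by -0.30. Complex I led with 16 of 33 tested subunits higher and 2 lower (median 0.16), followed by complex V with 7 higher and 4 lower of 17 (0.07), complex III with 3 and 1 of 8 (0.10) and complex II with 2 and 0 of 4 (0.24). Complex IV had 2 higher and 4 lower of 10, with a median (-0.04) near the -0.03 of all genes.

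Sdhb, the iron-sulfur subunit of complex II, measured 10.14, 10.04, 9.98 and 9.85 in P0 alpha cells and 11.17, 11.35, 11.07, 10.74 and 10.70 in adult ones. The adult arrays all lay above the newborn ones, and the difference was 1.00 (SE 0.12, adjusted p = 5.52e-09). Sdha rose by 0.53 (SE 0.10, adjusted p = 1.96e-05). In complex III, Uqcrh, the hinge protein that binds cytochrome c1, rose by 0.83 (SE 0.10, adjusted p = 4.55e-09), and in complex V Atp5d, the delta subunit of its rotor stalk, rose by 0.86 (SE 0.13, adjusted p = 3.72e-07). Ndufb9, an accessory subunit of complex I, rose by 0.85 (SE 0.15, adjusted p = 8.78e-06) and Ndufaf3, an assembly factor, by 0.86 (SE 0.14, adjusted p = 2.61e-06). For Ndufa3, Ndufs4 and Uqcrq another tested probe was called in the opposite direction.

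Ndufa4 and Cox5a fell in alpha cells as they did in beta cells. Cox5a measured 11.98, 12.01, 11.82 and 11.71 at P0 and 11.16, 11.12, 10.75, 10.53 and 10.62 in adults, a difference of -1.05 (SE 0.12, adjusted p = 5.08e-09). Ndufa4 measured 9.22, 9.13, 9.28 and 9.47 at P0 and 7.80, 6.17, 8.12, 7.94 and 8.63 in adults, a difference of -1.54 (SE 0.34, adjusted p = 0.000227). In both genes every adult array lay below every newborn array. Over the same interval 14 of 14 mesenchyme and stellate markers, 13 of 13 endothelial markers, 13 of 18 leukocyte markers and 18 of 19 cell cycle genes fell in alpha cells too, with the mesenchyme list at 10.53 to 11.55 in P0 arrays and 5.57 to 5.85 in adult ones. Their part in the rise of the members was not tested.

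The newborn populations already stood apart. This comparison was added after the values were seen. Relative to P0 beta cells, P0 alpha cells had 58 members lower and 3 higher, against 28.8% and 20.9% of all genes, with 32 lower and 24 higher after centring on cytosolic ribosome genes and 31 and 25 on proteasome genes. The median was -0.48 against -0.07 for all genes, and 0.01 and 0.02 under these centrings, which moved the median of all genes by 0.48 and 0.50. In complex I 23 of 33 tested subunits were lower, in complex III 5 of 8 (median -1.01), in complex IV 6 of 10 and in complex V 12 of 17. At least 2-fold lower were 24 members, against 13.7% of all genes. For Atp5j2, Cox5b and Sdha another tested probe was called in the opposite direction. Leukocyte markers were lower in P0 alpha than in P0 beta cells in 17 of 18 cases, with array means of 6.95 to 8.00 against 9.44 to 9.92, and their part was not tested.

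Sdhb measured 11.73, 11.53 and 11.498 in P0 beta cells, all more than 1 log2 unit above the P0 alpha arrays given above, a difference of -1.58 (SE 0.14, adjusted p = 1.07e-11). Ndufs8, a core iron-sulfur subunit of complex I, measured 12.42, 12.36 and 12.32 in P0 beta cells and 10.89, 10.94, 10.65 and 10.56 in P0 alpha cells, a difference of -1.61 (SE 0.13, adjusted p = 2.15e-12). Atp5g1, which encodes the c subunit of the rotor ring, measured 12.63, 12.71 and 12.85 against 11.25, 11.20, 11.11 and 10.94, also -1.61 (SE 0.15, adjusted p = 6.55e-11). None of these 3 genes overlapped between the populations. Uqcr10 of complex III gave -1.33 (SE 0.16, adjusted p = 1.38e-08), whereas Ndufa9, an accessory subunit of complex I, was higher in alpha cells at 0.50 (SE 0.11, adjusted p = 0.000385).

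The change from P0 to adulthood differed between the lineages. In the test of that difference, 45 members changed more downward in beta than in alpha cells and 4 more upward, against 21.3% and 19.6% of all genes, with 8 and 30 after centring on cytosolic ribosome genes and 20 and 12 on proteasome genes. The median was -0.45 against -0.07 for all genes, and 0.21 and -0.15 under these centrings. Adult beta cells held far more leukocyte marker signal than adult alpha cells (array means of 10.78 to 11.56 against 5.45 to 6.01). With P15 in place of adult beta cells, on the deposited scale only, 28 members changed more downward and 4 more upward. There 39.2% of all genes were called in either direction, and the median was -0.30 against -0.07. The compared arrays alone gave 32 calls. Sdhb gave -1.26 (SE 0.18, adjusted p = 1.01e-06), since it measured 11.41, 11.33, 11.31 and 11.26 in adult beta cells. Uqcrh gave -1.07 (SE 0.15, adjusted p = 5.7e-07), Atp5h, a stator subunit of complex V, -0.85 (SE 0.11, adjusted p = 6.84e-08) and Uqcr10 -1.29 (SE 0.21, adjusted p = 8.94e-06). For Sdha and Ndufa4, at -0.29 (adjusted p = 0.122) and -0.99 (adjusted p = 0.132), the lineages were not shown to differ.

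**Figure D3:**
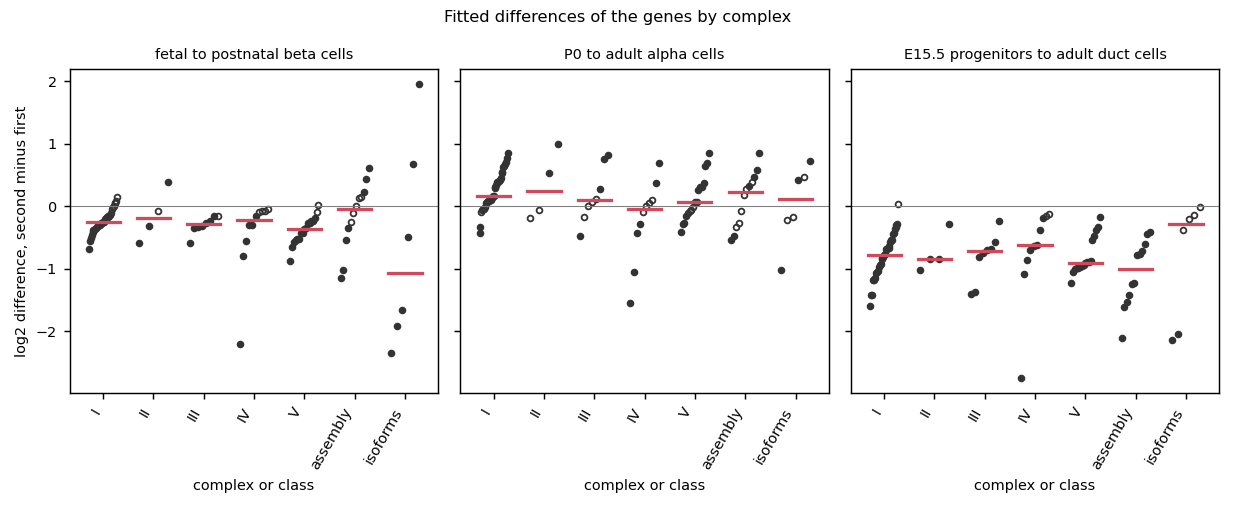
Fitted log2 differences (vertical axis) of the tested members by complex, assembly factors and isoforms (horizontal axis) for fetal to postnatal beta cells, P0 to adult alpha cells and E15.5 progenitors to adult duct cells. Filled points were called at an adjusted p under 0.05, open points were not, and red bars are group medians: on the deposited scale most points lie below 0 in the beta and duct panels and above 0 for complex I in the alpha panel, while the medians over all members with arrays centred on cytosolic ribosome genes are -0.01, -0.20 and -0.40.

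Adult beta and alpha cells differed in members of both directions, in proportions that moved with the centring. Relative to adult beta cells, 26 members were lower and 11 higher in adult alpha cells, against 25.5% and 21.3% of all genes, with 43 and 3 after centring on cytosolic ribosome genes and 15 and 25 on proteasome genes and 20 and 18 on array medians. The median was -0.06 against 0.01, and centring on the cytosolic ribosome or proteasome genes gave -0.24 or 0.14. With P15 in place of adult beta cells, on the deposited scale only, 31 members were lower and 4 higher, against 22.9% and 20.1% of all genes. The median was then -0.14 against 0.01. The compared arrays alone gave 18 calls. Under all 5 scalings 15 were lower and 3 higher.

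Cox7c, a small complex IV subunit, had the largest difference on the alpha side. It measured 8.16, 8.06, 7.59 and 8.18 in adult beta cells and 9.25, 9.33, 9.03, 9.22 and 9.60 in adult alpha cells, without overlap and with a difference of 1.29 (SE 0.19, adjusted p = 3.41e-07). Ndufb6, of complex I, was also higher, at 0.61 (SE 0.12, adjusted p = 6.43e-05). For Cox7c and for Ndufb6, only 1 of 2 tested probes was called. On the beta side were Cox5a at -1.30 (SE 0.12, adjusted p = 2.99e-11), Cox7a2l at -0.54 (SE 0.09, adjusted p = 8e-06) and Ndufs5 of complex I at -0.93 (SE 0.12, adjusted p = 5.81e-08). Uqcrq, a small complex III subunit, was 2.82-fold lower in alpha cells (SE 0.16 on the log2 scale, adjusted p = 2.62e-10), but its other tested probe was called in the opposite direction.

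Tissue-restricted isoforms of complex IV did not move together. Of the 6 tested, 4 fell and 2 rose from fetal to postnatal beta cells. The 2 that rose were Cox6a2 and Cox8c, and the signal of Cox8c was weak. Cox6a2, the muscle form of subunit 6a, reached its highest beta cell level in adults. In beta cells it measured 7.28, 7.42, 8.10 and 7.45 at E15.5, 9.14, 8.67, 8.66 and 8.89 at P15, and 10.70, 11.85, 12.36 and 12.12 in adults. Between them, E17.5 arrays spread from 7.44 to 10.28 and P0 arrays from 7.60 to 9.92, so the highest of each lay above every P15 array. The step from E15.5 to E17.5 was already called, at 1.45 (SE 0.44, adjusted p = 0.0146). Its arrays overlapped, and 1 of 2 tested probes was called. The step from P15 to adults was 2.91 (SE 0.41, adjusted p = 6.26e-07), a 7.53-fold rise with no overlap.

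Adult alpha cells held 9.26, 8.68, 8.51, 8.23 and 7.85 of Cox6a2, below every adult beta array, and differed from them by -3.25 (SE 0.39, adjusted p = 6.61e-09). The lineages' change from P0 to adulthood differed by 2.84 (SE 0.59, adjusted p = 0.00023) with adult beta cells and by -0.07 (adjusted p = 0.939) with P15 beta cells in their place. The leukocyte list rose over the same step, from array means of 6.53 to 8.95 at P15 to 10.78 to 11.56 in adults, and its part in the change of Cox6a2 was not tested. Cox6a2 measured 7.15, 7.70, 7.35 and 7.59 in Neurog3-null cells and 7.20, 7.15, 6.89 and 7.62 in duct cells, where the leukocyte means were 10.85 to 11.74 and 10.47 to 11.75. Its widely used partner Cox6a1 stayed between 13.07 and 13.70 in all 48 arrays.

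Cox6b2, the testis form of subunit 6b, moved the other way. It measured 9.48, 9.86, 9.85 and 9.89 at E15.5, 10.47, 9.76 and 10.10 at E17.5 and 9.42, 9.85 and 10.20 at P0. At P15 it measured 7.56, 6.95, 6.84 and 7.78, and in adult beta cells 8.32, 7.42, 7.92 and 7.61. No postnatal array reached a fetal one, and the difference was -2.35 (SE 0.16, adjusted p = 4.57e-16). It also fell in alpha cells from P0 to adulthood, by 1.02 (SE 0.22, adjusted p = 0.000155), and was lower in duct cells than in E15.5 progenitors by a fitted -2.14 (SE 0.25, adjusted p = 1.55e-09).

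Cox7a1, the muscle form of subunit 7a, was highest in acinar and Neurog3-null cells. Acinar arrays measured 9.63, 10.09 and 9.80, E15.5 progenitors 8.45, 9.06 and 8.22, and endocrine progenitors 6.96, 6.85 and 7.81. Acinar cells exceeded progenitors by 1.27 (SE 0.39, adjusted p = 0.0154), and endocrine progenitors were below them at -1.37 (SE 0.39, adjusted p = 0.00461), in neither case with overlap. In adult beta cells it measured 5.97, 5.90, 5.25 and 5.86, and the difference from fetal to postnatal beta cells was -1.91 (SE 0.23, adjusted p = 2.31e-09). The widely used Cox7a2 lay between 13.41 and 14.06 throughout.

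Ndufa4l2, a relative of Ndufa4 that is induced in low oxygen, appeared in a pair of populations only. E17.5 beta cells measured 9.56, 8.70 and 10.08 and P0 beta cells 8.65, 9.18 and 9.82, while all other arrays lay between 6.23 and 7.36. It rose from E15.5 to E17.5 by 2.72 (SE 0.24, adjusted p = 4.97e-11) and fell from P0 to P15 by 2.39 (SE 0.24, adjusted p = 5.83e-11). The same populations had the highest pericyte list means, 9.37 and 10.02, with 8.62 in P0 alpha cells, where Ndufa4l2 measured 7.36, 6.66, 6.49 and 6.69. The part of pericytes or other stroma was not tested. Cox4i2, the lung form of subunit 4, reached 7.36, 7.66 and 7.47 in P0 beta cells and 6.19, 6.70, 6.37 and 6.46 at P15, and Cox8c, another testis form, stayed between 5.12 and 6.88 in all arrays.

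**Figure D4:**
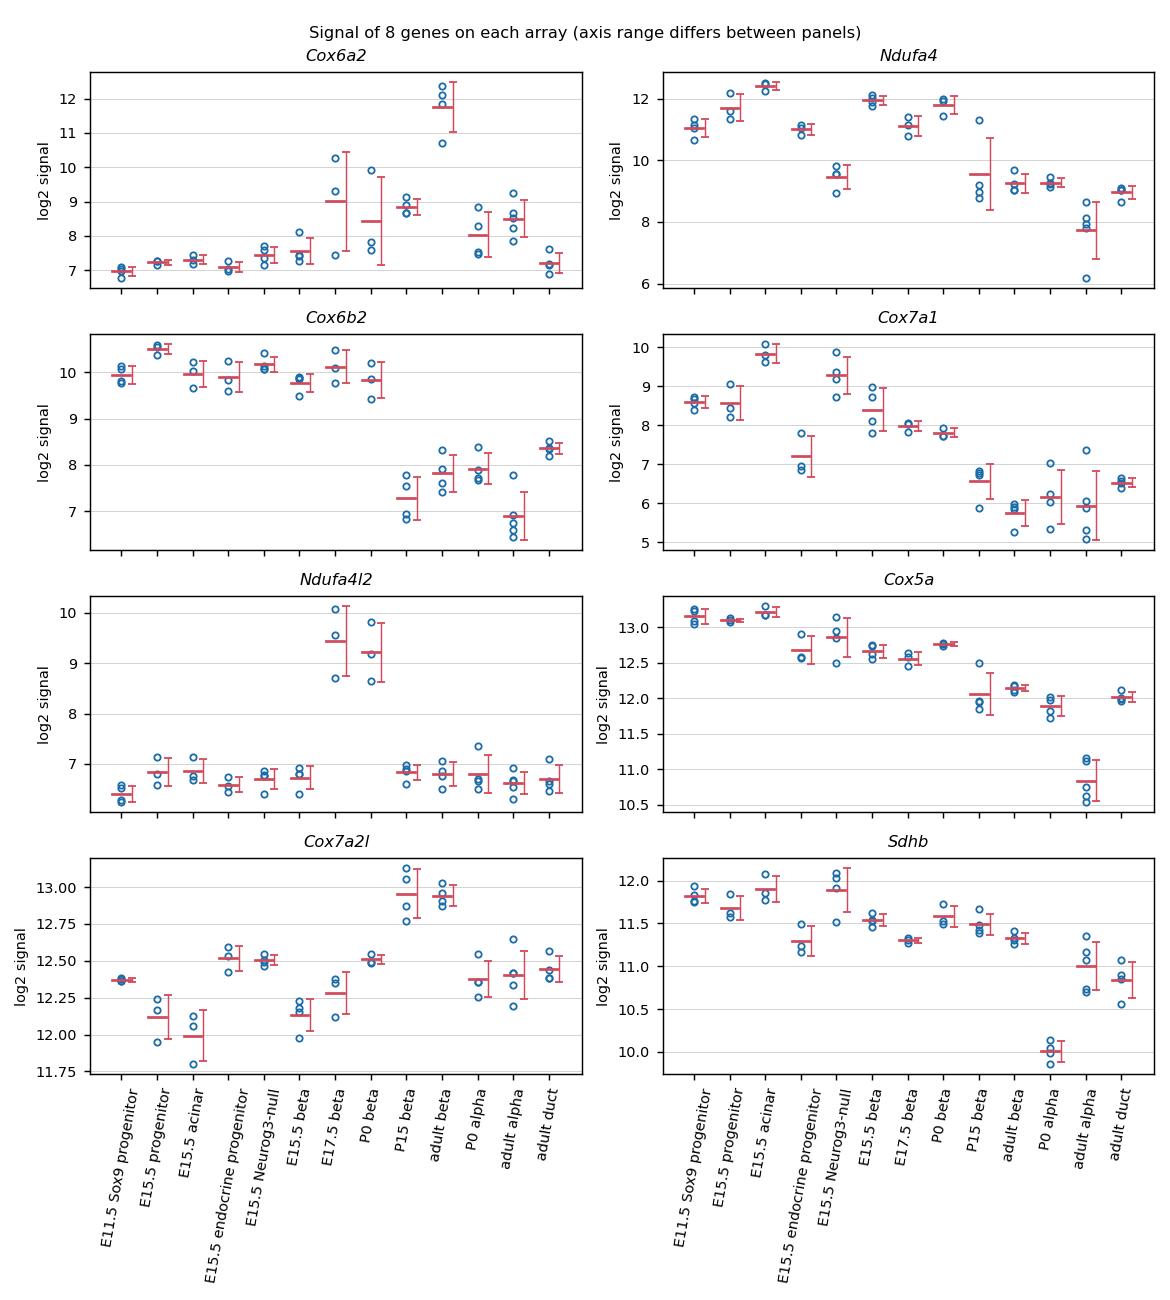
Log2 signal per array (points) of Cox6a2, Ndufa4, Cox6b2, Cox7a1, Ndufa4l2, Cox5a, Cox7a2l and Sdhb by population, with means (red bars) and SD (error bars). Cox6a2 stands out in adult beta cells (10.70 to 12.36) and Ndufa4l2 in E17.5 and P0 beta cells. Ndufa4 and Cox6b2 are low in postnatal islet cells, P0 alpha cells and duct cells, and Ndufa4 also in Neurog3-null cells.

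Adult duct cells gave the highest count of calls among the 15 comparisons on the deposited scale, but not with proteasome centring, where 42 members were called against 56 between the newborn populations. Relative to E15.5 progenitors 81 of 91 members were lower and 1 was higher, where 37.2% of all genes were lower and 24.6% higher, with 54 and 5 after centring on cytosolic ribosome genes and 20 and 22 on proteasome genes. The members' median was -0.78 against -0.16 for all genes, and -0.40 and -0.02 under these centrings, which moved the median of all genes by 0.39 and 0.77. At least 2-fold lower were 25 members, against 19.6% of all genes. Lower were 30 of 33 subunits of complex I, 4 of 4 of complex II, 8 of 8 of complex III, 8 of 10 of complex IV, 17 of 17 of complex V and 12 of 12 assembly factors. Cox7a2l was the member that was higher, at 0.32 (SE 0.11, adjusted p = 0.008).

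Sdhaf4 measured 10.75, 10.54 and 10.83 in E15.5 progenitors and 8.73, 8.77, 8.41 and 8.47 in duct cells, a difference of -2.11 (SE 0.20, adjusted p = 8.43e-12). Ndufa4 measured 11.61, 11.33 and 12.18 in progenitors and 9.02, 9.12, 9.03 and 8.66 in duct cells, a difference of -2.75 (SE 0.39, adjusted p = 1.03e-07). Ndufa8, an accessory subunit of complex I imported through a disulfide relay, measured 11.80, 11.80 and 11.77 against 10.07, 10.42, 10.12 and 10.17, a difference of -1.60 (SE 0.17, adjusted p = 1.5e-10). In all 3 genes the duct arrays lay more than 1 log2 unit below the progenitor arrays. Atp5k, the e subunit of complex V, differed by -1.23 (SE 0.14, adjusted p = 1.07e-09), and Uqcr11 of complex III by -1.40 (SE 0.17, adjusted p = 3.62e-09).

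All 18 tested leukocyte markers were higher in duct cells, with array means of 10.47 to 11.75 against 5.19 to 5.78 in progenitors, and all 19 cell cycle genes were lower. Neurog3-null cells, whose leukocyte means were 10.85 to 11.74, were also put in place of progenitors, on the deposited scale only. Against them 83 members were lower and none higher, against 41.7% and 23.2% of all genes, with a median of -0.76 against -0.24. Cox7a2l was then at -0.06 (adjusted p = 0.615). The subunits' median less that of the proteasome genes was 0.41 in Neurog3-null cells and 0.27 in duct cells. Less that of the cytosolic ribosome genes it was -1.28 and -1.83. Members with other tested probes called in the opposite direction were Cox5b, Cox8a, Ndufa12, Ndufs4 and Sdha.

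Among the fetal lineages the number of calls depended on the fit. From E11.5 to E15.5 progenitors, 5 members were called, all lower, where 29.0% of all genes were called in either direction, with 2 lower and 10 higher after centring on proteasome genes, 2 and 2 on array medians and 3 calls without the third E15.5 array. The arrays of these populations alone gave 18 calls, the methods' t-test after Benjamini-Hochberg adjustment 24, and array weights 43, where the weights called 65.6% of all genes. Ndufa1, an accessory subunit of complex I encoded on the X chromosome, differed by -0.67 (SE 0.14, adjusted p = 0.000336) and Ndufs1, the largest core subunit, by -0.46 (SE 0.12, adjusted p = 0.00411). In acinar cells 9 members were higher than in E15.5 progenitors and none lower, against 10.2% and 13.8%, or 4 and 2 with the proteasome centring. Ndufb6 led at 0.70 (SE 0.15, adjusted p = 0.000364), and Ndufaf4 was higher by 0.65 (SE 0.14, adjusted p = 0.000408). Without the first progenitor array 4 members were called, and with array weights 37, against 47.7% of all genes.

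Endocrine progenitors had 16 members lower and 5 higher than E15.5 progenitors, against 21.7% and 20.8% of all genes, with a median of -0.15 against -0.03. Ndufaf2, a complex I assembly factor, measured 11.64, 11.59 and 11.16 in progenitors and 10.32, 10.32 and 10.83 in endocrine progenitors, and differed by -0.97 (SE 0.16, adjusted p = 6.66e-06). Atp5l was higher, at 0.81 (SE 0.18, adjusted p = 0.000411). Leaving out the first endocrine progenitor array left 13 calls, and array weights gave 66, against 73.5% of all genes. Relative to Neurog3-null cells, endocrine progenitors had 28 members lower and 8 higher, against 33.5% and 26.5% of all genes, with a median of -0.14 against -0.10. Array weights gave 69 calls, against 74.0% of all genes.

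Atp5l measured 11.32, 10.85, 11.45 and 11.52 in Neurog3-null cells and 12.46, 12.55 and 12.65 in endocrine progenitors, a difference of 1.27 (SE 0.17, adjusted p = 4.64e-08). Ndufa4 measured 9.83, 8.93, 9.56 and 9.55 against 11.13, 10.81 and 11.05, a difference of 1.53 (SE 0.39, adjusted p = 0.000917). Neither gene overlapped between the populations, whereas Ndufaf4, at -1.05 (SE 0.13, adjusted p = 6.82e-09), Sdha, at -0.68 (SE 0.11, adjusted p = 2.23e-06), and Cox7a1, at -2.08 (SE 0.36, adjusted p = 6.68e-06), were lower in endocrine progenitors. The Neurog3-null arrays differed from endocrine progenitors in all 18 leukocyte markers (array means of 10.85 to 11.74 against 5.75 to 5.96) and all 19 cell cycle genes, and the part of these in the members' differences was not tested.

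From endocrine progenitors to E15.5 beta cells, 19 members were higher and 2 lower, against 14.9% and 11.3% of all genes, with 40 and 0 after centring on cytosolic ribosome genes and 9 and 3 on array medians. The median was 0.15 against 0.01. Complex I held 9 of the higher members, with a median of 0.21. Ndufa1 measured 11.26, 11.33 and 11.64 in endocrine progenitors and 12.28, 12.67, 12.68 and 12.48 in E15.5 beta cells, with no overlap and a difference of 1.11 (SE 0.14, adjusted p = 1.07e-07). This count rests on 1 array, since 6 members were called without the second endocrine progenitor array, and array weights gave 56, against 54.1% of all genes.

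The wider mitochondrial lists are given on the deposited scale, and their counts are read against the shares of all genes, 37.2% lower and 29.7% higher from fetal to postnatal beta cells. From fetal to postnatal beta cells, 51 of 76 mitochondrial ribosome genes were lower and 3 higher, as were 26 and 2 of 39 proteasome genes and 25 and 0 of 45 cytosolic ribosome genes. Of 17 genes of the tricarboxylic acid cycle and pyruvate entry, 11 fell and 2 rose. Suclg2, of succinyl-CoA synthetase, fell by 1.37 (SE 0.17, adjusted p = 9.7e-09), while Pcx, the pyruvate carboxylase, rose by 1.35 (SE 0.16, adjusted p = 1.7e-09). In glycolysis 7 of 15 fell and 5 rose, shares near those of all genes, led by Slc16a1, a lactate and pyruvate carrier, at -3.77 (SE 0.32, adjusted p = 8.1e-13) and Ldha, lactate dehydrogenase A, at -2.74 (SE 0.24, adjusted p = 2.1e-12), both of which are kept low in mature beta cells, and by Eno2 at 2.12 (SE 0.12, adjusted p = 1.6e-18). Among biogenesis regulators Gabpa, an ETS factor, fell by 1.77 (SE 0.18, adjusted p = 9.6e-11), and Ppargc1b, a coactivator, rose by 0.80 (SE 0.19, adjusted p = 0.00028).

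Among other assembly factors 10 of 26 rose and 6 fell in beta cells, with Tmem126b of complex I at 0.89 (SE 0.12, adjusted p = 5.3e-08). Of 22 electron carriers, coupling and exchange genes, 11 fell and 2 rose, with Etfa, which feeds electrons from fatty acid oxidation, at -1.53 (SE 0.12, adjusted p = 1.6e-13). In alpha cells from P0 to adulthood, where 26.9% of all genes were higher and 30.9% lower, 34 of 76 mitochondrial ribosome genes rose and 8 fell, 22 of 45 cytosolic ribosome genes rose and 1 fell, and 7 of 39 proteasome genes rose and 12 fell. Slc16a1 and Ldha fell there too, at -3.32 (SE 0.46, adjusted p = 1.1e-07) and -2.58 (SE 0.34, adjusted p = 5.6e-08), and Ppargc1a, a coactivator of mitochondrial biogenesis, rose by 1.20 (SE 0.32, adjusted p = 0.0019). In duct cells 74 of 76 mitochondrial ribosome genes, 35 of 45 cytosolic ribosome genes and 32 of 39 proteasome genes were lower than in E15.5 progenitors, against 37.2% of all genes. Over the 13 population means, the subunits' median correlated with those of the mitochondrial ribosome (r = 0.95), the proteasome (r = 0.92) and the cytosolic ribosome (r = 0.84). This is a description of points that share arrays and normalization. Centring on the cytosolic ribosome or proteasome genes also removes what that list shares with the subunits.

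Of the tested members with a promoter window, 17 held NRF1 letters and 58 did not. Their median differences were -0.31 and -0.26 from fetal to postnatal beta cells, 0.18 and 0.10 in alpha cells from P0 to adulthood, and -0.85 and -0.83 in duct cells, where the medians of all genes were -0.05, -0.03 and -0.16. Centring the arrays moves both sets by the same amount. Sdha, with 3 matches, and Ndufa8, with 1, moved in opposite directions from fetal to postnatal beta cells, at 0.39 and -0.68, and Ndufa4, with none of the letters searched, was at -2.20. These medians were not tested against each other.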

How the data were processed

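Sorted mouse pancreas cells were profiled on 48 Affymetrix mouse arrays after RNA amplification. Per the labels, the authors used R 2.11.1 for RMA normalization, and a single log2 value was deposited for each probe. These log2 values were used as deposited, and the sources used here do not say how many normalization runs were made. RMA makes values relative between arrays, so a change in total RNA is not measured.

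Populations followed the labels. Gene symbols came from the platform annotation, in which 34945 of 45101 probes carry 1 symbol, and all 94 members had the same symbol in GRCm38.p6. Members and gene lists were chosen with earlier results of these data known. One mean per population was fitted over all arrays with limma 3.58.1 in R 4.3.3 (35 residual and 3.55 prior degrees of freedom), and p-values were adjusted by Benjamini-Hochberg over 32078 probes above 100 on the linear scale in at least 1 array. Differences are the later-named population less the earlier-named, and populations pooled in a comparison had equal weight. The fit was tested on simulated data in which 50 of 32078 probes changed by each of 4 sizes. A change of 1 log2 unit was called in 92% of cases from fetal to postnatal beta cells, 74% in alpha cells, 58% in duct cells and 42% for the difference between lineages, and a change of 0.5 in 36%, 20%, 14% and 2%, so small changes can go uncalled. Far more genes were called in the data than were changed in the simulation, which loosens the adjusted threshold. These rates are therefore not those of the comparisons here. The number of arrays limits the precision.

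Named were the restricted isoforms with their widespread partners, the 10 members with the widest range, in each comparison up to 2 called members per complex and direction without overlap, the members of highest and lowest mean per complex, and up to 2 genes per pathway list and direction in islet maturation. Members named in other places were chosen after their values were seen, as were the comparison of P0 beta with P0 alpha cells and the exchanged populations. Alternatives were other filters, repeated quantile normalization, centring on medians, ribosome or proteasome genes, array weights, a trended prior, means over probes, the compared arrays only, the methods' t-test and leaving out each array. Equal replicate numbers went with correlated deviations in all pairs only for E11.5 and E15.5 progenitors (r = 0.106 to 0.148), and what a number marks is not given in the labels.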

Additional observations from a re-analysis of the deposited data

Results flagged for a closer look

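In groups of 4 to 10 arrays, 16 of 128 had 1 array set apart from the others by Dixon's test, which flags about 1 in 20 groups by chance. The first E15.5 beta array gave 7 of the 16. Its subunit mean was 12.28, against 12.39 to 12.40 in the others, and it was also low in the means of complex I (11.94), complex III (12.29) and complex V (12.99) and in Cox6b2 (9.48), Uqcrq (11.24) and Atp5l (12.55).

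The first P15 beta array was high for Ndufa4 (11.30, others 8.79 to 9.20), Sdhaf4 (10.90) and Cox5a (12.50). The second P15 array was low for Cox7a1 (5.88), as was the third adult beta array (5.25). The mean of complex I was high in the first adult beta array (11.75), that of complex IV low in the second Neurog3-null array (12.16) and that of complex V low in the first duct array (12.10). Atp5l was high in the second P0 alpha array (11.98).

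The change from P0 to adulthood differed between beta and alpha cells by the interaction term for 45 members that changed more downward and 4 that changed more upward in beta cells. This split turned to 8 and 30 with arrays centred on cytosolic ribosome genes.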

How the results depend on the processing

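Comparisons are named here by the population they lead to: E15.5 progenitors (from E11.5), acinar cells and endocrine progenitors (from E15.5 progenitors), the Neurog3-null comparison (to endocrine progenitors), first beta cells (E15.5, from endocrine progenitors), the E17.5, P0, P15 and adult beta steps (each from the stage before), postnatal beta cells (from fetal ones), adult alpha cells (from P0), adult alpha against adult beta cells, duct cells, the lineage difference (the P0 to adult change in beta minus that in alpha cells) and newborn alpha cells (against P0 beta cells). As reported, they held 5, 9, 21, 36, 21, 10, 1, 37, 4, 64, 50, 37, 82, 49 and 61 called members in that order. RMA values are relative, so the direction in several comparisons depends on the centring, and no deposited value fixes which centring is right. The cytosolic ribosome and proteasome lists correlated with the subunits over populations (r = 0.84 and 0.92). Centring on them therefore also removes change that they share with the subunits. Repeated quantile normalization turned no median in sign. Median centring turned those of E15.5 progenitors (0.034) and of adult alpha against adult beta cells (0.058). Precision is limited by how many arrays there are. The cause of the changes below was not tested.

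Requiring a signal above 100 in at least 24 arrays gave 3 calls at the P0 step, no filter gave 2, and repeated quantile normalization gave 3 there and 2 at the adult beta step. Centring on array medians gave 15 calls in acinar cells, 12 in first beta cells, 2 at P0 and 8 at the adult beta step, with medians of -0.056 at P15, 0.21 in adult alpha cells and 0.058 for adult alpha against adult beta cells, the last turned in sign. Centring on cytosolic ribosome genes gave 40 calls in first beta cells, 7 at P0 and 24 at P15. Its medians were 0.28 in first beta cells, 0.087 at P15, 0.0041 at the adult beta step, -0.0052 in postnatal beta cells, -0.20 in adult alpha cells, -0.24 for adult alpha against adult beta cells, -0.40 in duct cells, 0.21 for the lineage difference and 0.0051 in newborn alpha cells. Centring on proteasome genes gave 12 calls in E15.5 progenitors, 6 at E17.5, 2 at P0, 42 in duct cells and 32 for the lineage difference. Its medians were 0.11 in E15.5 progenitors, -0.00079 in acinar cells, -0.031 at P15, 0.030 at the adult beta step, -0.011 in postnatal beta cells, 0.14 for adult alpha against adult beta cells, -0.018 in duct cells, -0.15 for the lineage difference and 0.021 in newborn alpha cells.

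Array weights gave 43 calls in E15.5 progenitors, 37 in acinar cells, 66 in endocrine progenitors, 69 and a median of -0.26 in the Neurog3-null comparison, 56 in first beta cells, 8 at P0, 58 at P15 and 8 at the adult beta step. A prior that follows intensity gave 10 calls in E15.5 progenitors, 4 at P0 and 9 at the adult beta step, and the mean of all probes of a gene gave 10, 5 and 8. Subunits and isoforms alone held 13 calls in endocrine progenitors and 0 at P0. A change of at least 2-fold as well left 0 calls in E15.5 progenitors, 1 each in acinar cells and endocrine progenitors, 5 in the Neurog3-null comparison, 2 in first beta cells, 2 at E17.5, 0 at P0, 5 at P15, 1 at the adult beta step, 7 in postnatal beta cells, 4 in adult alpha cells, 5 for adult alpha against adult beta cells, 25 in duct cells, 11 for the lineage difference and 24 in newborn alpha cells. A limma fit of the compared populations alone gave 18 calls in E15.5 progenitors, 5 at E17.5, 0 at P0 (5 members at an unadjusted p under 0.05), 13 at P15, 1 at the adult beta step, 24 in adult alpha cells, 18 for adult alpha against adult beta cells and 32 for the lineage difference. The methods' t-test with Benjamini-Hochberg adjustment gave 24 in E15.5 progenitors, 0 at P0 (17 unadjusted), 15 at P15, 2 at the adult beta step, 31 in adult alpha cells and 23 for adult alpha against adult beta cells. With P15 in place of adult beta cells, chosen after the values were seen, the lineage difference held 32 calls and a median of -0.30.

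Leaving out single arrays gave 3 to 4 calls in E15.5 progenitors, 4 to 11 in acinar cells, 13 to 26 in endocrine progenitors, 28 to 41 in the Neurog3-null comparison, 6 to 24 in first beta cells, 5 to 10 at E17.5, 0 to 2 at P0, 21 to 45 at P15, 1 to 5 at the adult beta step, 61 to 66 in postnatal beta cells, 42 to 47 in adult alpha cells, 30 to 39 for adult alpha against adult beta cells, 74 to 82 in duct cells, 41 to 54 for the lineage difference and 55 to 60 in newborn alpha cells. Medians ran, in the same order, from -0.086 to -0.041, 0.13 to 0.18, -0.22 to -0.10, -0.23 to -0.11, 0.11 to 0.22, -0.11 to -0.051, -0.045 to 0.013, -0.25 to -0.12, -0.16 to -0.039, -0.29 to -0.23, 0.072 to 0.14, -0.10 to -0.025, -0.85 to -0.72, -0.50 to -0.42 and -0.53 to -0.46, so that only the P0 step changed sign.

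With the replicate number as a block, E15.5 progenitors held 4 calls, P15 32, postnatal beta cells 64, adult alpha cells 45 and the lineage difference 54, no count moved by more than 1.5 times, and 1 named gene lost its call. Over the settings that kept all arrays, values of named genes kept direction and call in 1481 cases, lost the call in 118 and turned in 4. The 4 were Sdhc in the lineage difference with the ribosome centring (0.0012, adjusted p = 0.997), Cox6a2 in the lineage difference (-0.074, adjusted p = 0.939) and Atp5c1 in adult alpha against beta cells (-0.044, adjusted p = 0.736) with P15 in place of adult beta cells, and Cox7a2l in duct cells with Neurog3-null cells in place of progenitors (-0.060, adjusted p = 0.615). Without single arrays, 1120 cases kept both, 97 lost the call and 0 turned.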
